A study of Mus musculus with 116 samples.

Results

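Primitive endoderm genes were followed from the oocyte to the inner cell mass (ICM) of the mouse blastocyst. The 10 genes Gata6, Gata4, Sox17, Sox7, Pdgfra, Dab2, Foxa2, Cubn, Amn and Col4a1 were chosen by symbol from textbook knowledge of this lineage. Each had 1 row in each of the 4 deposited tables, and all 10 were found among the 24028 symbols that the tables share. The series examined RNA polymerase II and the onset of transcription in mouse oocytes and embryos, and 7 of its 116 samples are RNA libraries, the others being chromatin libraries not analysed here. All animals were wild-type, and the mothers were females of 8 weeks given PMSG and then hCG, hormones that cause ovulation. Embryos had a C57BL/6N mother and a PWK father.

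The 5 total RNA libraries, 1 for each group and each pooled from about 100 oocytes or embryos, were depleted of ribosomal RNA. They came from MII oocytes at 13 h after hCG, PN5 zygotes (late pronuclear stage) at 30 h, early 2-cell embryos at 36 h, and 2 groups of late 2-cell embryos. For the latter, zygotes taken at 23 h were cultured for 14 h with 0.1% DMSO (control) or with 60 uM DRB, which inhibits transcription elongation by RNA polymerase II. They were then released at the 2-cell stage and grown for another 12 h. The sample title of the second group reads mTBE, and the header of its column reads DRB. The ICM group has 2 libraries, taken at 98 h and made with Smart-seq2 from polyadenylated RNA. How the ICM was separated from the trophectoderm is not given in the sources used here.

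The primitive endoderm is an epithelium that forms on the blastocoel face of the ICM and later gives rise to the visceral and parietal endoderm of the yolk sac. Fgf signalling drives some ICM cells towards it and the transcription factor Gata6 starts its programme, while Nanog marks the cells that become epiblast. Pdgfra, Sox17, Gata4 and Sox7 follow in that textbook order, and the mature layer secretes basement membrane and takes up maternal protein by endocytosis.

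Values are the authors' FPKM, a fragment count scaled by transcript length and library size, so levels of different genes can be set side by side. Differences are on the log2(FPKM + 1) scale, where folds of low genes come out too small. A comparison took in the genes that reached 1 FPKM in any of its libraries, and a difference of at least 1, about 2-fold, was called higher or lower. Apart from the ICM, each group has 1 library, so no difference here has a p-value or a replicate check. MII, early 2-cell and ICM values come from separately normalized tables; only PN5 and both late 2-cell libraries share one. Between 39.1% and 42.2% of all genes were at 1 FPKM or more in the MII, PN5, early 2-cell and ICM libraries. That share was 51.9% in the late 2-cell control and 54.2% in the DRB library.

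**Figure D1:**
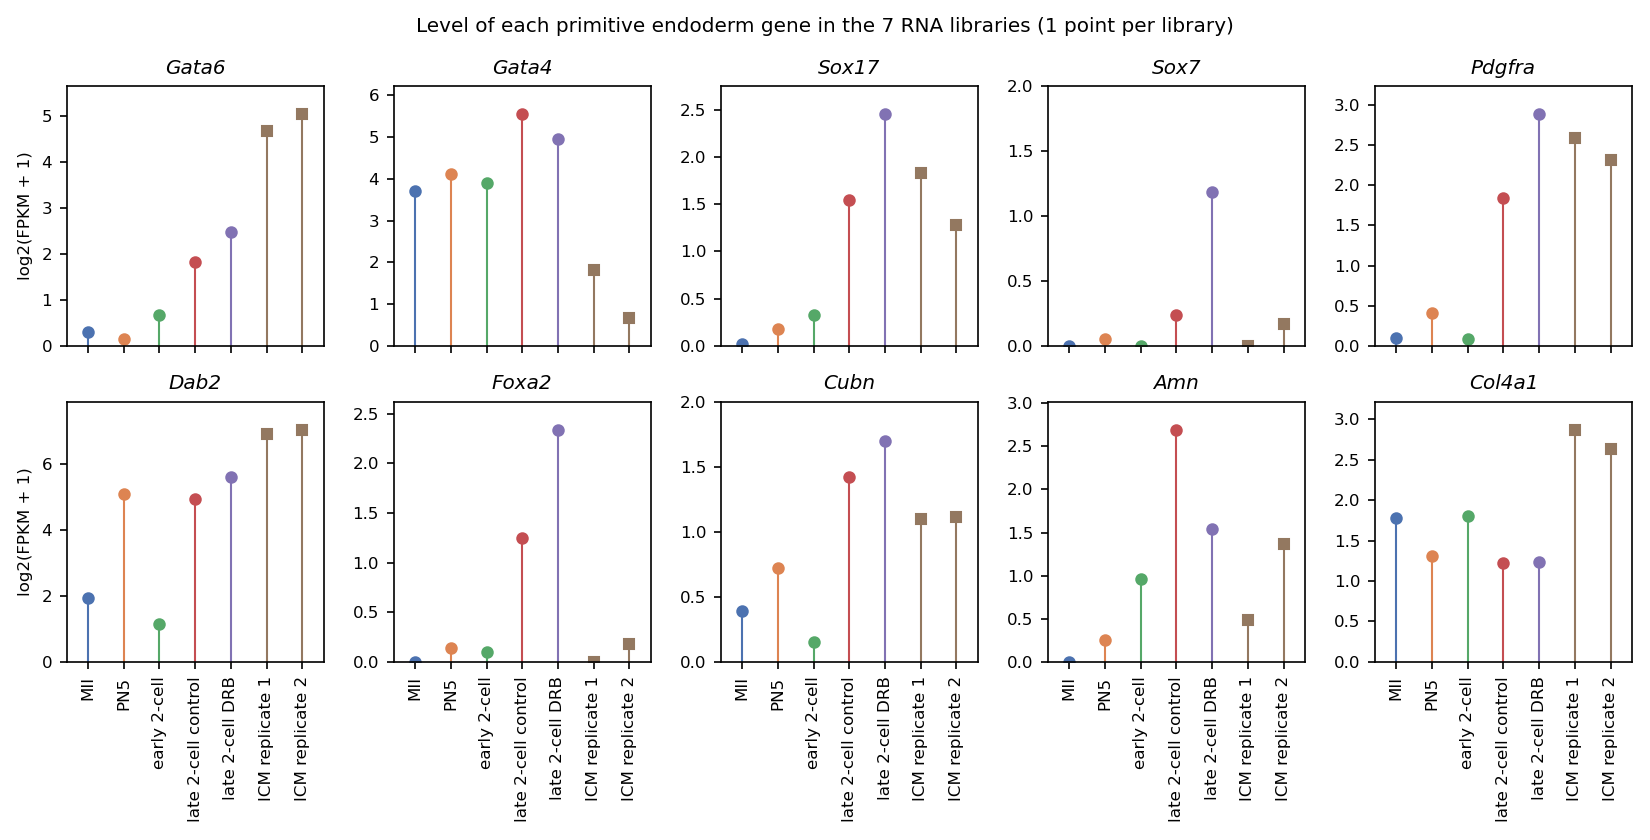
Level of each gene on the log2(FPKM + 1) scale (vertical axis, scaled for each gene) in the 7 libraries (horizontal axis), with circles for total RNA and squares for ICM libraries. Gata4 stands highest in the late 2-cell control at 46.1 FPKM, whereas Gata6, Dab2 and Col4a1 stand highest in the ICM.

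A level of 1 FPKM was used to separate genes already expressed early from those that start in the ICM. By this rule 9 of the 10 genes were expressed early, that is at 1 FPKM or more in MII, PN5, early 2-cell or late 2-cell control embryos, against 56.6% of all genes. None was ICM-onset (below 1 FPKM in those 4 libraries and at it or above in both ICM libraries), a class that held 2.43% of all genes. Sox7 fell in neither class. Gata4, Dab2 and Col4a1 were at 1 FPKM or more in all 4 early libraries. The other 6, Gata6, Sox17, Pdgfra, Foxa2, Cubn and Amn, reached it first in the late 2-cell control, as did 10.2% of all genes, a count added after the values were seen. The classes depend on the level chosen: at 5 FPKM, Gata6 and Col4a1 were ICM-onset, Gata4, Dab2 and Amn were early, and 5 genes were neither.

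In both ICM libraries Gata6, Pdgfra, Dab2 and Col4a1 were above all 4 early libraries. These are 4 of the 9 genes that reached 1 FPKM in a library other than DRB, against 26.9% of all genes that did, a count added after the values were seen. Across tables and library kinds this order is a description only.

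Between the total RNA and the ICM libraries the order of the 2 GATA factors was reversed, although both were higher in the late 2-cell control than in PN5. Gata4, a zinc finger factor of the mature primitive endoderm, was at 12.1 FPKM in MII, 16.4 in PN5, 13.8 in early 2-cell, 46.1 in late 2-cell control and 30.2 in DRB embryos. In the ICM it was at 2.51 and 0.581 FPKM (mean 1.55 ± 1.37, SD, n = 2), below each of the 5 earlier libraries. Gata6, the factor that initiates the lineage, was at 0.235, 0.105, 0.604, 2.54 and 4.59 FPKM in the same 5 libraries. It was at 24.5 and 32.1 FPKM in the ICM (28.3 ± 5.42, SD, n = 2), above all of them. Thus Gata4 was the more abundant of the pair in each total RNA library, and Gata6 in each ICM library.

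Ranks within a library do not depend on its scaling and show where each gene stood among all genes. They were taken from the same FPKM values, so the order of the 2 genes is the same by construction. Ranks do not remove the difference in library kind. Gata4 lay at percentile 80.1 of all genes in MII and 93.4 in the late 2-cell control, and at 66.6 and 57.0 in the ICM libraries. For Gata6 the percentiles were 48.2 and 58.2 at the same early stages and 88.3 and 91.0 in the ICM. The 2 ICM replicates themselves differed for Gata4, by -1.15 for replicate 2 against replicate 1. Between these replicates 2.31% of genes were at least 2-fold higher in replicate 2 and 2.79% lower, 231 and 279 genes, which median scaling turned into 330 and 145 and rescaling into 367 and 699.

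**Figure D2:**
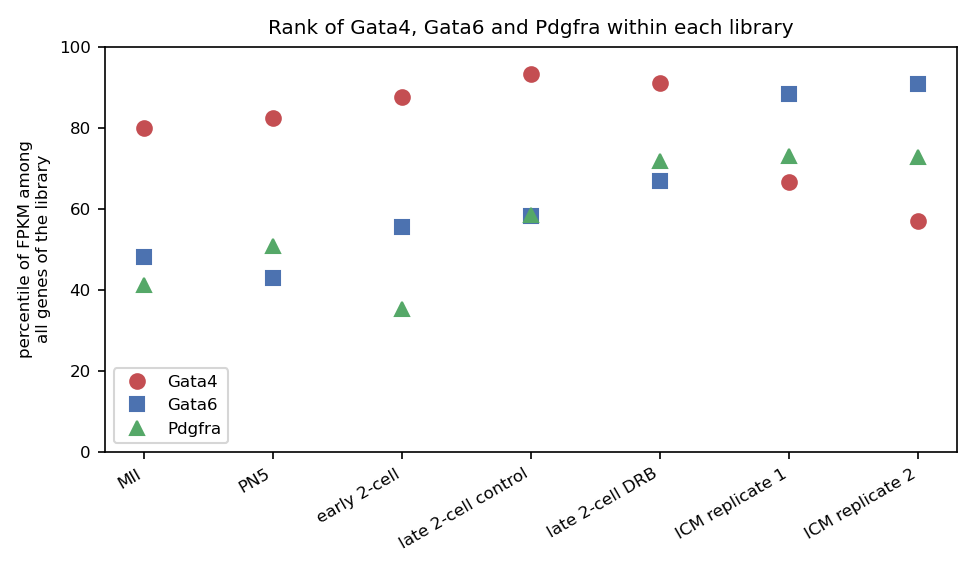
Percentile of the FPKM of Gata4 (circles), Gata6 (squares) and Pdgfra (triangles) among all genes of a library (vertical axis) in the 7 libraries (horizontal axis). Gata4 is above Gata6 in the 5 total RNA libraries and below it in both ICM libraries, as in the FPKM values that were ranked.

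Other GATA genes had their own courses. Gata3, a trophectoderm factor, was between 0.906 and 4.93 FPKM in the 4 early libraries and at 145 and 127 in the ICM. Gata2 first exceeded 1 FPKM in the late 2-cell control, at 13.3 FPKM, and Gata1, an erythroid factor, was listed at 0 in MII, PN5 and early 2-cell and at 15.6 FPKM in the late 2-cell control. Gata5 was at most 0.153 FPKM in any library.

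Granulosa cells also express Gata4, so cumulus and granulosa markers were examined in the early libraries. Of 12 such genes 2 were at 1 FPKM or more in MII, PN5 and early 2-cell, and 6 in the late 2-cell control. Serpine2 was at 90.9 FPKM in MII, 124 in PN5, 30.6 in early 2-cell and 49.5 in late 2-cell control embryos, and Cyp19a1 at 8.28, 12.2, 3.61 and 2.85. Amhr2 was at most 0.144 FPKM before the late 2-cell control, where it was at 16.7. Fshr, the follicle-stimulating hormone receptor that defines granulosa cells, was at 0.0699 FPKM in MII and listed at 0 in PN5, early 2-cell and late 2-cell control. Foxl2 was listed at 0 in MII and PN5 and was at 0.314 FPKM in early 2-cell and 1.04 in late 2-cell control embryos. The summed level of the list ranged from 35.1 to 137 FPKM over the 4 early libraries, and its part in the Gata4 values was not tested.

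The SoxF factors were low throughout. Sox17, which sustains the primitive endoderm programme, was at 0.0139 FPKM in MII, 0.132 in PN5, 0.256 in early 2-cell, 1.92 in late 2-cell control and 4.48 in DRB embryos. The ICM libraries had 2.54 and 1.42 FPKM (1.98 ± 0.792, SD, n = 2), which overlap the late 2-cell control. Sox7, its later-acting relative, was listed at 0 in MII, early 2-cell and ICM replicate 1, and was at 0.0355 FPKM in PN5, 0.178 in the control and 0.121 in ICM replicate 2. Only the DRB library held it above 1 FPKM, at 1.27. Sox18, the remaining SoxF gene and better known from blood vessels, was at 2.78 FPKM in control and 7.53 in DRB embryos and at 0 in both ICM libraries. Sox7 and Sox18 were thus near or at 0 in both ICM libraries.

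Foxa2, a forkhead factor of visceral and definitive endoderm, had 0 FPKM in MII, 0.101 in PN5, 0.0726 in early 2-cell, 1.37 in control and 4.06 in DRB embryos. In the ICM it was listed at 0 and at 0.132 FPKM. Its relatives were also low in the ICM: Foxa1 was at 3.44 FPKM in the control and 0.0588 and 0.290 in the ICM, and Foxa3 at 3.24 and then 0.0637 and 0. All 3 Foxa genes were thus highest in 1 of the late 2-cell libraries.

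Pdgfra encodes a receptor for platelet-derived growth factor and is a standard surface marker of the primitive endoderm. It was at 0.0731 FPKM in MII, 0.330 in PN5, 0.0639 in early 2-cell, 2.59 in control, 6.41 in DRB embryos, and 5.03 and 3.97 in the ICM (4.50 ± 0.751, SD, n = 2). Both ICM libraries were above the control and below the DRB library. Its ligand gene Pdgfa was at 2.77 FPKM in MII, 0.532 in PN5 and 1.41 in early 2-cell embryos. It was at 8.21 FPKM in the control, 4.11 in DRB embryos and 44.9 and 29.5 in the ICM. Ligand exceeded receptor in each library but DRB. Pdgfrb, the other receptor, stayed below 1 FPKM in all 7 libraries.

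Dab2, a clathrin adaptor that links receptors of the LDL family to coated pits, was the most abundant of the 10 genes in the ICM. It was at 119 and 130 FPKM there (124 ± 7.33, SD, n = 2), at percentiles 96.8 and 97.1. In PN5 it was at 32.8 FPKM, in the control at 29.6 and in DRB embryos at 47.8, but in MII at 2.77 and in early 2-cell embryos at 1.22. The high values are those of the shared table and the low values those of the single-library tables. All 3 libraries of the shared table were at least 10.7 times above both single-library tables. Of 3981 genes at 10 FPKM or more in all 3 libraries of the shared table, 18 had such a gap of 10-fold or more, a count added after the values were seen. For Dab2, stage and table cannot be told apart.

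RefSeq lists 2 start sites for Dab2. The window from 250 bases before to 50 after the upstream one is shown because it holds the letters GATAA, the core of the sequence that GATA factors recognise, once on each strand. It lies at chr15:6299539-6299838 on the plus strand of GRCm38.p6. Capitals mark GATAA or its reverse complement TTATC. Of all 32851 windows of this kind 25.4% hold GATAA on either strand. The window at the downstream Dab2 start holds none.
Dab2: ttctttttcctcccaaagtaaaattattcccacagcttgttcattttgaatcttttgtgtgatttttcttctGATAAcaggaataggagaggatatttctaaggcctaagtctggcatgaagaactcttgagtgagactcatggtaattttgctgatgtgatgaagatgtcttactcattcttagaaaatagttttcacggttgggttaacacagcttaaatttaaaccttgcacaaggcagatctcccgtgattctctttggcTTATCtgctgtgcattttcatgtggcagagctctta

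Endocytic receptors of the layer were set beside Dab2. Cubn encodes cubilin, which with amnionless, the product of Amn, forms the cubam receptor for vitamin B12 bound to intrinsic factor. Cubn was at 0.307 FPKM in MII, 0.648 in PN5, 0.113 in early 2-cell, 1.68 in control, 2.24 in DRB embryos, and 1.14 and 1.17 in the ICM (1.15 ± 0.0178, SD, n = 2). Amn had 0 FPKM in MII, 0.192 in PN5, 0.945 in early 2-cell, 5.47 in control and 1.92 in DRB embryos. The ICM replicates had 0.395 and 1.58 FPKM of Amn (0.989 ± 0.840, SD, n = 2). Amn was above Cubn in the early 2-cell and late 2-cell control libraries and in ICM replicate 2, and below it in the others. Lrp2, which encodes megalin and acts together with cubilin, was between 0.453 and 1.16 FPKM in the 4 early libraries and at 31.8 and 23.2 in the ICM.

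Over 15 genes of endocytic uptake, 6 (against 24.7% of all genes) were at least 2-fold higher in the ICM than in the late 2-cell control and 3 (against 47.3%) were lower. Among the 4 most abundant, the clathrin coat genes Ap2s1 and Clta were higher. Ap2s1 was at 26.6 FPKM in the control and 356 and 420 in the ICM, and Clta at 42.5 and then 319 and 260. Ctsl, a lysosomal protease gene (141 and then 215 and 226), and the clathrin heavy chain gene Cltc (81.1 and then 90.7 and 58.8) lay within 2-fold, and the ICM replicates of Cltc lay on either side of the control.

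Col4a1 encodes the alpha 1 chain of type IV collagen, the network-forming collagen of basement membranes. It was at 2.42 FPKM in MII, 1.48 in PN5, 2.49 in early 2-cell, 1.33 in control and 1.36 in DRB embryos. The ICM had 6.32 and 5.22 FPKM (5.77 ± 0.778, SD, n = 2), above each earlier library. Col4a2, whose product joins 2 alpha 1 chains in the collagen trimer, was at 3.52, 1.87, 4.45, 0.896 and 0.578 FPKM and at 3.55 and 2.84 in the ICM. In both genes the late 2-cell libraries were the lowest, but Col4a2 was highest in early 2-cell embryos. The 4 other collagen IV genes were at 2.00 FPKM or less in all 7 libraries.

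Col4a1 and Col4a2 are transcribed in opposite directions from start sites that RefSeq (GRCm38.p6) places 21 bases apart, so their windows overlap by 78 bases. The Col4a1 window, chr8:11312777-11313076 on the minus strand, is shown because part of it also lies in the Col4a2 window. Capitals mark the shared stretch. The GC content of the whole Col4a1 window, 74.0%, is at percentile 95.6 of all windows. Whether the deposited counting used strand is not given in the sources used here.
Col4a1: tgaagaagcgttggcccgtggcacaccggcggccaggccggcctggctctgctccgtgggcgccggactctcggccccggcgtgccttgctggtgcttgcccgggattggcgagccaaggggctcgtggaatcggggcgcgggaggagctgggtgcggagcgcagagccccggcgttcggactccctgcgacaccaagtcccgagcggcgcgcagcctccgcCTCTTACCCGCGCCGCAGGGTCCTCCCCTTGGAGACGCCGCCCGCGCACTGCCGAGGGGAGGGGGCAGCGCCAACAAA

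Of 19 measured genes for basement membrane and its assembly, 7 (against 24.7% of all genes) were at least 2-fold higher in the ICM than in the late 2-cell control and 4 (against 47.3%) were lower. The most abundant were P4hb, a subunit of the collagen prolyl hydroxylase, at 105 FPKM in the control and 143 and 187 in the ICM, and the laminin gene Lamb1 at 39.7 and then 9.27 and 6.55. Dag1, a laminin receptor, was at 25.9 and then 14.6 and 10.1 FPKM, and Itgb1 at 14.5 and then 21.7 and 27.2. Lamb1 was far higher in MII, at 381 FPKM.

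For the 10 genes as a set, the ICM was compared with the late 2-cell control. Of 9 measured, 3 were at least 2-fold higher (Gata6 by 3.04, Dab2 by 2.03 and Col4a1 by 1.54 in log2) and 3 were lower (Gata4 by -4.32, Amn by -1.77 and Foxa2 by -1.16). Of all 13636 genes compared, 24.7% were higher and 47.3% lower. Foxa2 was below 1 FPKM in both ICM libraries, so it could not have been called higher. The 9 had a median difference of 0.0054, and all genes one of -0.85. Library kind and table differ along with stage, so their parts cannot be told apart. In bulk samples, fewer cells of a type and less RNA per cell also cannot be told apart.

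The ICM libraries held RNA of markers of both other blastocyst lineages. The epiblast marker Nanog was at 105 and 133 FPKM, against 1.84 in the late 2-cell control. Sox2, the other defining epiblast marker, went the other way, at 5.25 and 2.85 FPKM against 10.1. All 12 epiblast and pluripotency markers were at 1 FPKM or more, but 11 already were in the late 2-cell control. All 12 trophectoderm markers were also at 1 FPKM or more in both libraries, against 9 in the late 2-cell control. The epiblast and pluripotency markers had the larger summed level, 7521 and 8956 FPKM, against 213 to 404 in the 4 early libraries. Dppa5a made up most of it in the ICM, at 6736 and 8307 FPKM. The trophectoderm markers had a summed level of 3392 and 2913 FPKM, against 22.9 to 91.7 in the 4 early libraries. Among them Cdx2, which defines the trophectoderm, was at 31.4 and 22.1 FPKM and the keratin gene Krt18 at 1116 and 991. The summed level of the 10 primitive endoderm genes was 162 and 176 FPKM, of which Dab2 made up most. The part of trophectoderm RNA in the ICM values of Dab2, Gata6, Col4a1 and the others was not tested. Oocyte markers summed to 11.6 and 36.8 FPKM in the ICM libraries. Zp3 made up most of this, at 10.8 and 23.4 FPKM, and Gdf9 was listed at 0 and at 4.71.

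**Figure D3:**
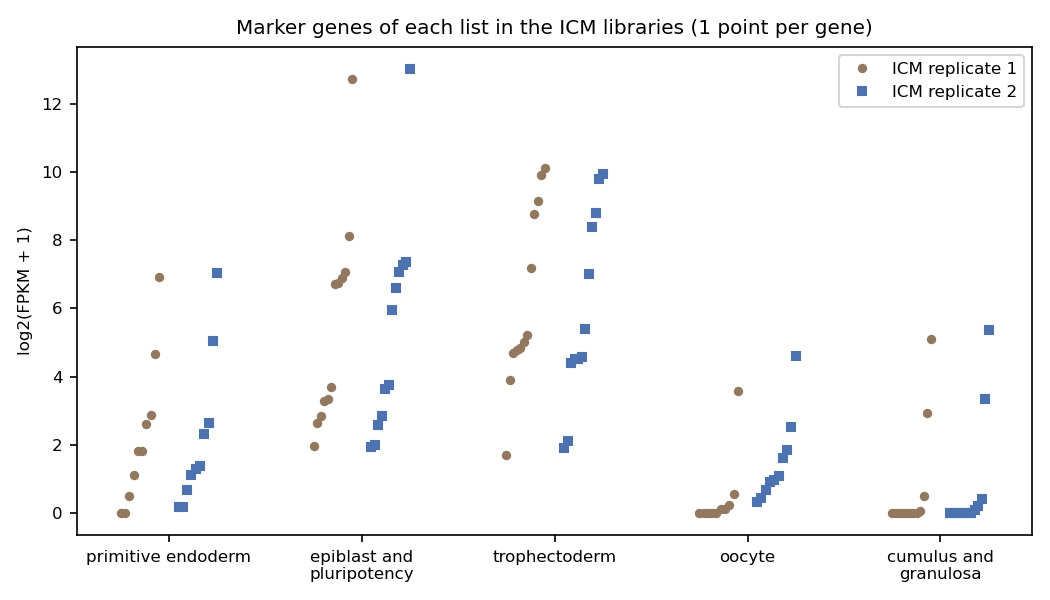
Levels on the log2(FPKM + 1) scale (vertical axis) of the genes of 5 marker lists (horizontal axis) in ICM replicate 1 (circles) and replicate 2 (squares), 1 point for each gene. Epiblast and pluripotency markers reach 8307 FPKM (Dppa5a) and trophectoderm markers 1116, above the highest of the primitive endoderm genes at 130.

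The step from PN5 to the late 2-cell control lies within 1 table. Of 9 measured genes 6 were at least 2-fold higher and 0 lower, against 30.5% and 17% of all 13022 genes. Those higher were Amn by 2.44, Gata6 by 1.68, Gata4 by 1.44, Pdgfra by 1.43, Sox17 by 1.37 and Foxa2 by 1.11 in log2. Of these only Gata4 started above 1 FPKM, and the others were at most 0.330 FPKM in PN5. Those others, and Cubn at 0.648 FPKM in PN5, entered the comparison only through the late 2-cell control. They could thus not have been called lower, so the counts of 6 and 0 are a description. With a filter of 5 FPKM 2 genes were higher. Cubn (0.70), Dab2 (-0.14) and Col4a1 (-0.09) lay within 2-fold. PN5 zygotes had no recorded vehicle treatment, so stage cannot be told apart from DMSO and culture.

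From MII to the early 2-cell stage few of these genes could be compared. Gata4 (0.17), Col4a1 (0.03) and Dab2 (-0.77) were measured and lay within 2-fold, and the other 7 stayed below 1 FPKM in both libraries. Over 10669 genes 3.98% were called higher and 28.8% lower, in numbers 425 and 3075. Setting the median log2 ratio of -0.57 to 0 changed these counts to 1058 and 1258 and moved Gata4 to 0.75 and Dab2 to -0.20, and rescaling libraries to equal sums changed the counts to 2038 and 2547.

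The response to DRB was mixed. After the temporary block, 2 of the 10 genes, Pdgfra and Foxa2, were at least 2-fold higher than in the control and 1, Amn, was lower. Over all 13726 genes 5.57% were higher and 9.99% lower, in numbers 765 and 1371. With the median log2 ratio set to 0 those numbers were 952 and 1091, and with libraries rescaled to equal sums 1859 and 2106.

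Foxa2 was at 1.37 FPKM in control and 4.06 in DRB embryos, a log2 difference of 1.09, and Pdgfra at 2.59 and 6.41, a difference of 1.05. Sox7 (0.178 and 1.27 FPKM) differed by 0.95 and Sox17 (1.92 and 4.48) by 0.91, just under the size used. Both passed it with a pseudocount of 0.1 FPKM, with median scaling and with libraries rescaled to equal sums. The 4 genes encode 3 transcription factors and a receptor, all at 2.59 FPKM or less in the control, as were Gata6, Cubn and Col4a1. Dab2 (0.67), Gata6 (0.66), Cubn (0.27) and Col4a1 (0.02) lay within 2-fold.

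Amn was at 5.47 FPKM in control and 1.92 in DRB embryos, a log2 difference of -1.15. Gata4 was at 46.1 and 30.2, a difference of -0.60, within 2-fold. They were the 2 genes of the set with a negative difference.

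**Figure D4:**
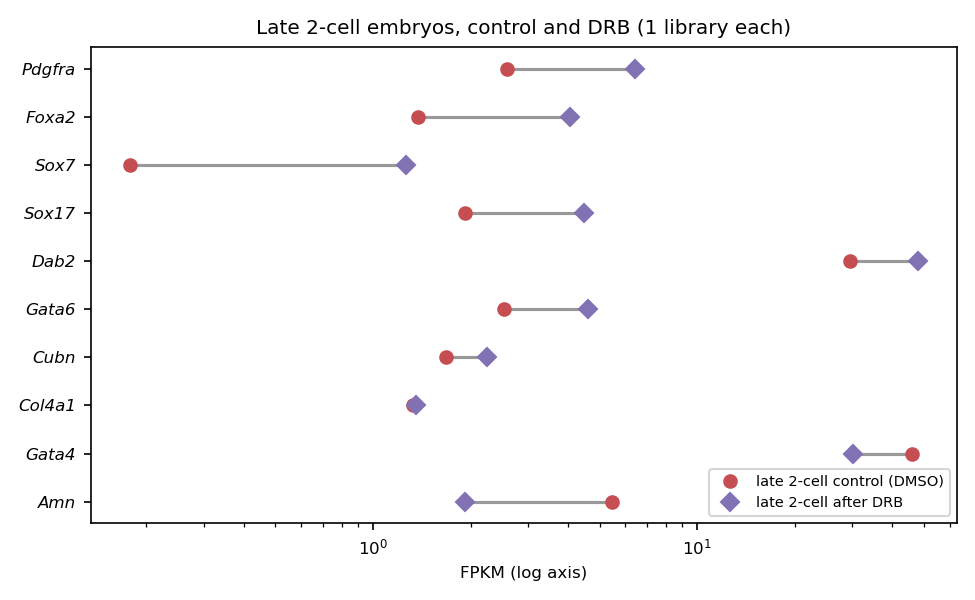
FPKM of each gene (horizontal log axis) in late 2-cell control (circles) and DRB embryos (diamonds), 1 library each. Pdgfra and Foxa2 lie at least 2-fold to the right in DRB embryos on the log2(FPKM + 1) scale, and Amn lies to the left.

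Low genes as a whole leaned upward in the DRB library. Among 5744 genes with a mean below 5 FPKM in these libraries, 10.7% were called higher and 7.29% lower, a split by level added after the values were seen. Their median difference was 0.08. From 5 to 20 FPKM the shares were 2.39% and 13.7%. Of the 10 genes 8 had a mean below 5 FPKM, and the calls fell among these, 2 higher and 1 lower. Within so small a set this is a description.

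Relatives and other endoderm factors were examined in the same comparison. Of 10 factors 3 were at least 2-fold higher (against 5.57% of all genes) and 0 lower (against 9.99%). Those higher were Sox18 (1.18), Foxq1 (4.32 and 13.1 FPKM, 1.41) and Nr2f2 (0.480 and 3.36 FPKM, 1.56). Nr2f2 had a mean below 5 FPKM, where 10.7% of genes were higher. It reached 1 FPKM only in the DRB library, so it could not have been called lower. Sox18 and Foxq1 had means from 5 to 20 FPKM, where 2.39% were. Sall4 (85.0 and 43.3 FPKM, -0.96) and Klf5 (41.5 and 29.6) lay within 2-fold, as did Eomes (7.44 and 11.4). Foxa1 differed by 0.86 and Foxa3 by -0.73. Gata3 was higher (2.60 and 10.2 FPKM) and Gata1 lower (15.6 and 3.39). Nr2f2 was named after its values were seen.

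Lists for the basement membrane, endocytosis and the Fgf and Pdgf input were read against the same shares of 5.57% higher and 9.99% lower. Of 16 measured basement membrane genes 2 were lower, P4hb (105 and 38.0 FPKM) and P4ha2 (19.7 and 6.66), and 0 higher. Of 15 endocytic genes 4 were lower, Clta, Ctsl, Lrpap1 and Gipc1, and 0 higher. Clta was at 42.5 and 18.8 FPKM and Ctsl at 141 and 66.5. Of 17 measured genes of the Fgf and Pdgf input 2 were lower and 0 higher, and the most abundant, Spry4 (423 and 489 FPKM), a feedback inhibitor, lay within 2-fold. P4ha2, Lrpap1 and Gipc1 were named after their values were seen.

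Some markers of other cells differed between these libraries as well. Amhr2 was at 16.7 FPKM in control and 2.12 in DRB embryos, and Foxl2 at 1.04 and 7.20, while Fshr was listed at 0 and at 0.143. Of the 12 cumulus and granulosa markers 6 were at 1 FPKM or more in each library, with summed levels of 77.3 and 79.0 FPKM. Of 10 measured trophectoderm markers 1 was higher and 0 lower (against 5.57% and 9.99% of all genes). Of 12 epiblast and pluripotency markers 0 were higher and 1 was lower, and of 10 oocyte markers 0 were higher or lower. The part of these markers in the differences was not tested.

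The windows around the start sites of the 3 genes called in the DRB comparison are shown so that they can be compared. They are chr2:148046920-148047219 (minus strand, the most upstream of 3 Foxa2 starts), chr5:75152001-75152300 (plus strand, Pdgfra) and chr12:111270846-111271145 (plus strand, Amn), from RefSeq, GRCm38.p6. Motifs searched on both strands were the CCAAT box, the GC box GGGCGG of Sp and Klf factors, the TATA box TATAAA, and the GATA core described above. Capitals mark matches on either strand. The CCAAT box occurred once in the Foxa2 window and once in the Amn window and is in 37.4% of all windows. The GC box also occurred once in each and is in 35.7% of windows. The TATA box, found in 13.6% of windows, was in none of the 3, and the Pdgfra window held none of the 4 motifs. A downstream Foxa2 window held 1 TATA box and 1 GATA core.
Foxa2: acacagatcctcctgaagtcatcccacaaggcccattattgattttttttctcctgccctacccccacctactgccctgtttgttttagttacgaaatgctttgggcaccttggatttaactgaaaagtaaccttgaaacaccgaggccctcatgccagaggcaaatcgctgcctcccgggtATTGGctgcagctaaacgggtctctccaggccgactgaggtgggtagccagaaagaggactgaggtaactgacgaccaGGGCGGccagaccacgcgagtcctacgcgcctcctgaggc
Pdgfra: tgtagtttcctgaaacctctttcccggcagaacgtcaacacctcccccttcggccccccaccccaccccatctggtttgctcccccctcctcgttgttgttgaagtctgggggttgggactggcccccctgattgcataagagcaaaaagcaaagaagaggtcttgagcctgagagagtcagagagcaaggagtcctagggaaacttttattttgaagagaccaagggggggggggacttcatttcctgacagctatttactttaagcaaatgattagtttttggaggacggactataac
Amn: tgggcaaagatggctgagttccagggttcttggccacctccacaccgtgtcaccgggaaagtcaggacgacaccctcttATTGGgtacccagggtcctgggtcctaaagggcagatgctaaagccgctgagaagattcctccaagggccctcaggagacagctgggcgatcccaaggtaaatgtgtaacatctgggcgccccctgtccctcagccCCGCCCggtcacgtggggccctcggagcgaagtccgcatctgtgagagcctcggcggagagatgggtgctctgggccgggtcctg

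Of the 10 genes 6 were matched to start-site windows; Gata6, Gata4, Sox17 and Sox7 were not. The matched windows had no common motif among the 4 searched.

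Genes most like each member were found by the root mean square difference of log2(FPKM + 1) over the 7 libraries, for the 6 members that reached 5 FPKM. The choice itself favours genes with the same course over these libraries, so their levels below describe the choice and are no separate result. Gata6 was nearest to Xbp1 (0.21), Cyb5r1 (0.24) and Cdx2 (0.28), of which Xbp1 encodes a factor of the unfolded protein response. Xbp1 was at 1.94 FPKM in the control and 27.4 and 31.4 in the ICM. Gata4 was nearest to Pdpr (0.30), Pacs1 (0.33) and Rad54l2 (0.35), all between 12.3 and 48.5 FPKM in the total RNA libraries and at 3.43 FPKM or less in the ICM.

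Pdgfra was nearest to 1700096K18Rik, Dok1 and Lnp, with distances of 0.25 to 0.26. Amn was nearest to Fam212a, Nr1h3 and Stim1, all at 0.31. Each was lower in DRB than in control embryos (9.76 and 2.52, 4.36 and 1.87, 5.23 and 2.55 FPKM), which the choice over these same libraries favours. Col4a1 was nearest to S100a16 (0.34). Dab2 had no close match: its nearest gene, Sptssa, lay at 0.53.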

How the data were processed

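Per the file headers and labels, the authors deposited FPKM values for each gene symbol and library. Build mm9, TopHat2 2.1.1, CASAVA 1.8 and Cufflinks 2.1.1 appear in the submitters' processing notes, without roles. The sources used here do not give the annotation, the handling of multi-mapped reads or the use of strand. Rows that shared a symbol were summed (no member had repeated rows), and no value was rescaled between tables. Samples were grouped by title, and no label says whether the 2 ICM libraries came from separate collections; 109 samples were not analysed here, and 0 value columns lacked a sample. The MII column bears a name that a chromatin sample also bears, and was taken as MII RNA because its table is listed with that sample.

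Differences, size calls, onset classes and ranks were computed with Python 3.11.15, pandas 2.3.3 and numpy 2.4.6, and the size rule was tested on simulated data. No test between groups was possible with 1 library each. For total RNA the depth is unknown. In the ICM pair, 284 of 1972 genes below 0.3 FPKM lay at 1 ratio (within 0.5%). If those genes had 1 read in each library, replicate 1 had 2.11 times the depth of replicate 2, which was not tested. The members, gene lists and settings were chosen with earlier results of these data known. The text names all members, most of their family partners, the defining markers and, from each list, at most 4 genes by mean level. The genes most like a member are the 3 nearest. Other names are said to be chosen after their values were seen. Promoter windows are from RefSeq (GRCm38.p6), a build other than the authors'.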

Additional observations from a re-analysis of the deposited data

How the results depend on the processing

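The number of genes at least 2-fold higher after DRB, 2 as reported, was 4 with a pseudocount of 0.1 FPKM, with the median log2 ratio set to 0 and with libraries rescaled to a sum of 1000000, and 1 with a filter of 5 FPKM; the number lower was 1 under each of the 6 alternatives. From PN5 to the late 2-cell control 6 were higher, or 2 with a filter of 5 FPKM and 7 with a pseudocount of 0.1 and with rescaling. From MII to early 2-cell, 0 higher became 3 after rescaling to a sum of 1000000 and 0 lower became 1 with a pseudocount of 0.1. Between ICM replicates 0 higher became 1 with that pseudocount and with rescaling. Rescaling to a sum of 1000000 raised all values against the fixed pseudocount and filter, so it is no separate check from a smaller pseudocount. At a threshold of 5 FPKM the onset classes held 3 early, 2 ICM-onset and 5 other genes in place of 9, 0 and 1; counting the DRB library as early left 0 in neither class. The ICM counts against the late 2-cell control, 3 higher and 3 lower, were 3 and 3 without either ICM replicate, and 2 lower with a filter of 5 FPKM. Of 182 single-gene values under alternatives 157 moved by less than the spread of the ICM pair (0.57, the SD over all genes). Another 25 moved further, and 0 called values changed sign. The 157 include values under a filter of 5 FPKM, no filter and the highest of repeated rows. Those settings cannot change the value of a member, so these values are no check of stability. No paired analysis was possible because each group but the ICM has 1 library. Levels below 1 FPKM, as for Sox7 and Foxa2 in the ICM, have an unknown depth behind them.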

Other observations

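Genes of the later yolk sac endoderm were divided in the ICM libraries. Cryab, a small heat shock protein gene, was at 0.868 FPKM in the late 2-cell control and at 53.2 and 64.7 in the ICM, and Apoe, a lipid carrier gene, at 19.3 and then 147 and 97.6. Apoa1, chosen after its values were seen, was listed at 0 in the 4 early libraries and was at 31.7 and 48.0 FPKM in the ICM. Afp, Ttr and Apob, typical of mature visceral endoderm and likewise chosen, were at most 0.0656 FPKM in either ICM library. Plat and Srgn went the other way: Plat was at 642 FPKM in MII and at 1.88 and 2.49 in the ICM, and Srgn at 54.8 in the late 2-cell control and 0.557 and 1.51 in the ICM.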
